A study of Bos taurus with 64 samples.

Results

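Skeletal muscle microRNAs (miRNAs) were compared between low-RFI and high-RFI Holstein-Friesian steers at the end of a period on zero-grazed grass. RFI, residual feed intake, is the difference between what an animal eats and what its weight and gain predict, so a low-RFI steer is the more feed-efficient of a pair that perform alike. The libraries were chosen by their labels alone: breed Holstein-Friesian, diet zero-grazed grass, and treatment Low-RFI or High-RFI. They numbered 16 of the 64 in the series, 8 low-RFI and 8 high-RFI, each from a different steer.

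The series also holds Charolais steers and a later phase on a high-concentrate diet, again with 8 libraries to each group. Intake had been recorded in 77 Holstein-Friesian steers over 2 phases of 70 days, with 14 days of acclimatisation between them, and grass came before concentrate. All 16 steers thus shared a dairy breed, cut ryegrass as feed and the earlier phase. The sources used here give neither their ages nor which muscle was sampled.

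A miRNA is cut from a hairpin precursor, loaded into an Argonaute protein and guided by its seed, the bases near its 5′ end, to messenger RNAs that it then represses. Either strand of the hairpin can be kept, which gives the 5p and 3p arms. Skeletal muscle is known for the myomiRs, of which miR-1, miR-133 and miR-206 act in muscle differentiation and miR-208b and miR-499 are encoded in myosin heavy chain genes. Whole muscle also holds vessels, connective tissue, blood and nerve, each with miRNAs of its own.

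No miRNA differed between low-RFI and high-RFI steers past the threshold. With edgeR's quasi-likelihood test, 0 of 318 miRNAs tested (0%) had a Benjamini-Hochberg adjusted p under 0.05, and 17 (5.35%) had an unadjusted p under 0.05. Of those 17, 13 (4.09%) were higher and 4 (1.26%) were lower in low-RFI steers. Total-count scaling gave 6 higher and 5 lower, DESeq2's size factors 8 and 5, and leaving out 1 library 4 to 11 higher and 3 to 9 lower. DESeq2 and limma-voom also called 0, with 15 and 16 at an unadjusted p under 0.05. The ranges of the 8 low and 8 high libraries overlapped for every miRNA tested (0% without overlap). miR-21-5p, a miRNA abundant in fibroblasts and many proliferating cells, had the smallest adjusted p (0.120), with a level 1.83 times as high in low-RFI steers (95% interval 1.33 to 2.52). That interval rests on a spread shared by all 8 groups of the series. Fitted to the 16 libraries alone, miR-21-5p had an edgeR adjusted p of 0.994.

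Across the 318 miRNAs, the median log2 difference, low minus high RFI, was 0.05, and the middle 50% lay between -0.06 and 0.17. A positive value was seen for 197 (61.9%) and a negative one for 121. That split turned with the scaling between libraries: total-count scaling gave 126 positive and 192 negative with a median of -0.07, and DESeq2's size factors gave 139 and 179 with a median of -0.03. With any 1 library left out the median was -0.09 to 0.00, below the value with all 16, and 119 to 167 were positive. The filter and scaling were redone in each of those fits. Log2 differences given below without a library thus hold this common shift as well as the part of that library. A lean of the whole profile towards either group was therefore not defined by these data, and single differences below are relative to TMM scaling unless another is named.

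The comparison bounded most differences within 2-fold. Levels are in CPM, which puts libraries on a common scale with factors from TMM, a method that aligns the bulk of the miRNAs between libraries. For 269 of the 318 miRNAs (84.6%) the 95% interval lay within 2-fold in either direction, and for 171 (53.8%) within 1.5-fold. The median half-width of the interval was 0.445 on the log2 scale, a factor of 1.36. Abundance mattered: 109 of 146 miRNAs under 10 CPM were bounded within 2-fold, against 83 of 89 at 10 to 100 CPM, 47 of 49 at 100 to 1000 CPM and 30 of 34 over 1000 CPM. These intervals rest on the spread shared by all 8 groups of the series and on TMM scaling. Fitted to the 16 libraries alone, 255 of the 287 miRNAs then tested were bounded within 2-fold.

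**Figure D1:**
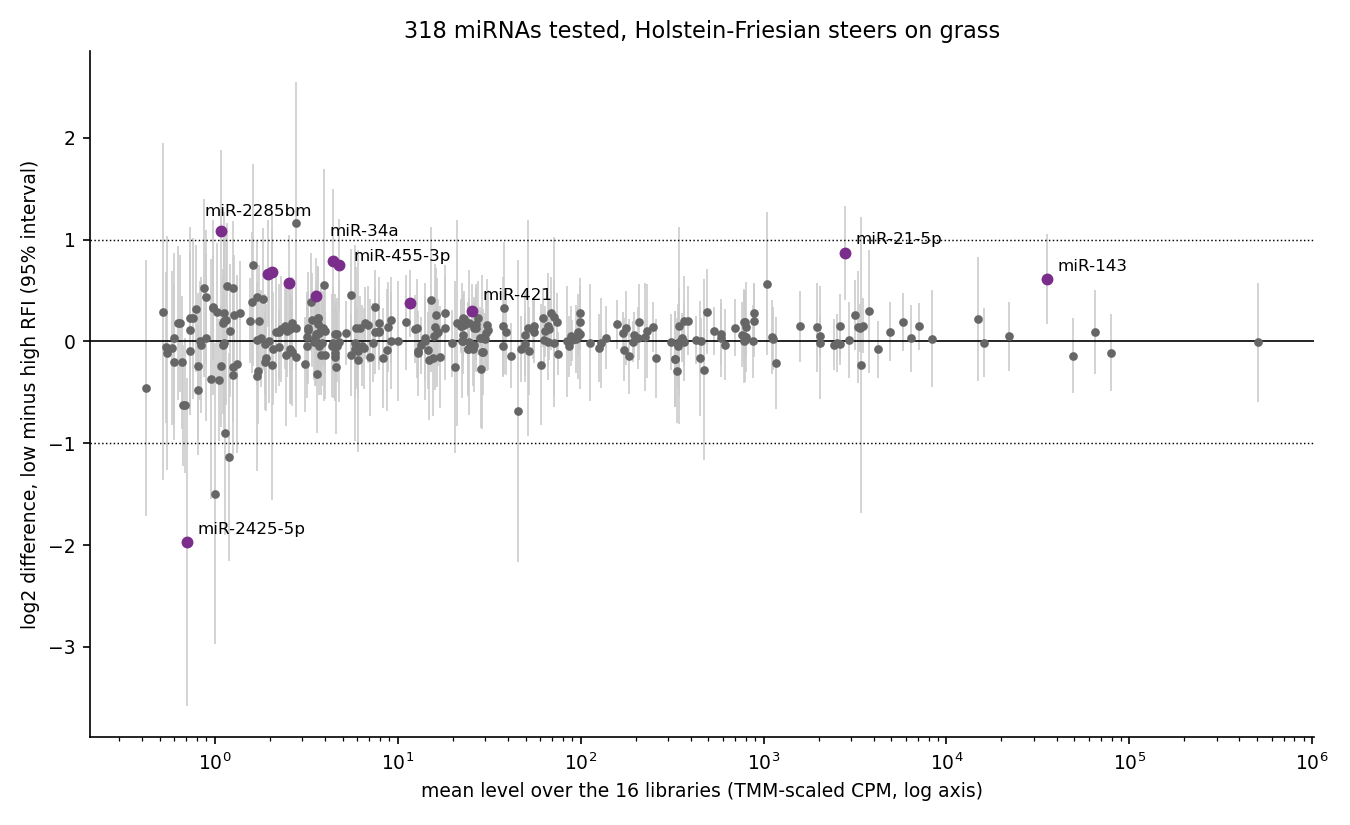
Log2 difference, low minus high RFI, against mean level (TMM-scaled CPM, log axis) for 318 miRNAs, with 95% intervals as grey lines. Purple points are the 12 miRNAs with the smallest p, 7 of them named, and dotted lines mark 2-fold. Wide intervals are common at the left, and miR-21-5p and miR-143 are the abundant miRNAs farthest above 0.

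Total counts ran from 4938883 to 9935041 in low-RFI libraries and from 4795936 to 12245099 in high-RFI libraries. Differences between the groups were within their spread in total count (exact two-sided permutation test over 12870 splits, p = 0.812), in the number of miRNAs with a count (507 ± 37.7 against 510 ± 47.3, mean ± SD, n = 8 each, exact permutation p = 0.903) and in TMM factor (exact permutation p = 0.686). High-RFI replicate 1 stood apart from the other 7 of its group: its TMM factor was 2.43, and miR-10b took 19.3% of its counts (95% Wilson interval 19.32 to 19.36, counting error only), against 47.2% to 68.5% in the others. Low-RFI replicate 2 stood apart in miR-143.

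The muscle label was checked against the myomiRs, and all 8 names of that list were present. miR-133a had medians of 66544 CPM in low-RFI and 66204 CPM in high-RFI libraries, and miR-486 78020 and 80786 CPM. miR-1, often the leading miRNA of muscle, was low in this table, with medians of 180 and 188 CPM. From the other cell types' lists, liver miR-122 had 4 counts summed over the low-RFI and 2 over the high-RFI libraries, and neuronal miR-124a had 5 and 7, while the less restricted members miR-192 (liver) and miR-128 (neuron) averaged 458 and 367 CPM over the 16.

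The 5 most abundant miRNAs together took 65.9% to 87.3% of each library. miR-10b, encoded in the HOXD cluster, took 54.8% ± 4.85 of the counts in low-RFI and 52.9% ± 15.5 in high-RFI libraries (mean ± SD, n = 8 each, exact permutation p = 0.810). Without high-RFI replicate 1 the difference, low minus high, went from 1.96 to -2.83 percentage points. miR-486, which is made from the ANK1 gene in muscle and red cells, took 8.57% ± 1.94 and 9.81% ± 2.39 (exact permutation p = 0.269). miR-133a took 7.18% ± 2.35 and 8.25% ± 4.81 (exact permutation p = 0.641), and miR-26a 5.17% ± 1.02 and 6.04% ± 1.97 (exact permutation p = 0.294). miR-143, a miRNA of smooth muscle and fibroblasts, took 5.07% ± 3.65 and 3.41% ± 1.69 (exact permutation p = 0.288), a difference of 1.67 percentage points that was 0.49 without low-RFI replicate 2. After adjustment over the 8 single values tested, the smallest p was 0.783. miR-22-3p, next in abundance and known from cardiac and skeletal muscle, ran from 13726 to 33282 CPM (median 22776) in low-RFI and from 15001 to 28032 CPM (median 21954) in high-RFI libraries. Its log2 difference was 0.05 ± 0.17 (SE, edgeR adjusted p = 0.998), and the sign turned under total-count scaling (-0.21).

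**Figure D2:**
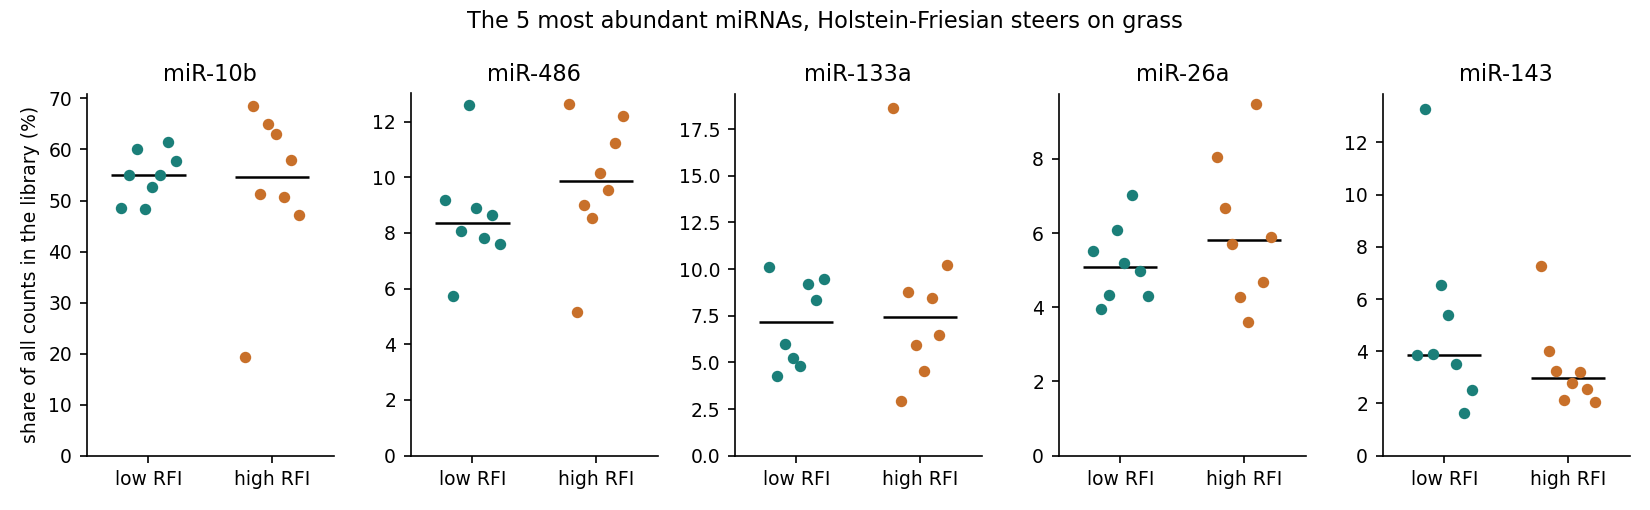
Share of all counts (%) taken by miR-10b, miR-486, miR-133a, miR-26a and miR-143 in each library, with a point per library and a line at the median of 8. The isolated low miR-10b point (19.3%) and high miR-133a point (18.6%) are high-RFI replicate 1, and the highest miR-143 point (13.3%) is low-RFI replicate 2.

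miR-21-5p ran from 1329 to 7340 CPM in low-RFI libraries, with a median of 2911 CPM. In high-RFI libraries it ran from 1510 to 2357 CPM, with a median of 1950 CPM. Low-RFI replicates 2, 3, 4 and 5, at 3589, 6995, 4483 and 7340 CPM, lay above every high-RFI library, and replicates 1 and 8, at 1329 and 1336 CPM, lay below every one. The log2 difference was 0.87 ± 0.23 (SE, 95% interval 0.41 to 1.33, edgeR adjusted p = 0.120). The low library was the higher in 39 of 64 pairs of a low and a high library, and 5 of the 8 low libraries exceeded the high-RFI median. The low-RFI group was the more spread out: the SD of log2 CPM was 1.02 in low-RFI and 0.20 in high-RFI libraries, and this excess was the greatest of the 318. Over all miRNAs the median SDs were 0.435 and 0.434, with the low-RFI SD the larger for 137. In the other groups of the series the SD of miR-21-5p ran from 0.15 to 0.57, and the SE above rests on the spread shared by all groups. Fitted to the 16 libraries alone, the log2 difference of miR-21-5p was 0.84 ± 0.33 (SE, edgeR adjusted p = 0.994). Among the 8 groups of the series, the highest miR-21-5p level outside low-RFI Holstein-Friesian steers on grass was 4140 CPM, in low-RFI Charolais on grass. Without low-RFI replicate 5 the log2 difference was 0.56 (edgeR adjusted p = 0.996), and without replicate 1 it was 0.91 (edgeR adjusted p = 0.0914).

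The other arm of that hairpin, miR-21-3p, was scarce, and its ranges in the groups overlapped widely. It ran from 4.76 to 15.1 CPM (median 6.55) in low-RFI and from 2.71 to 22.7 CPM (median 7.08) in high-RFI libraries, with a log2 difference of -0.16 ± 0.25 (SE, edgeR adjusted p = 0.998), or 0.17 without high-RFI replicate 1, its highest library. The ratio of arms within a library needs no scaling between libraries. Over low-RFI libraries 5p exceeded 3p 263- to 796-fold (median 406), and over high-RFI libraries 84.9- to 558-fold (median 264). The ranges overlapped, and the log2 ratio differed by 0.61 (exact two-sided permutation test, p = 0.0828, 0.166 after adjustment over the 4 ratios examined, n = 8 each).

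Some myomiRs, though not all, were low in 3 of the low-RFI libraries with high miR-21-5p. Low-RFI replicates 2, 4 and 5 held the lowest miR-1 levels of the 16, at 119, 106 and 109 CPM, against 161 CPM or more in the other 13. miR-133a in the same 3 libraries was 35736, 36771 and 31205 CPM, near the lowest high-RFI library (36498 CPM). miR-133b was low there too, at 3782, 4724 and 3476 CPM, against a high-RFI mean of 8257 CPM. miR-206 was not, at 14.9, 15.4 and 15.3 CPM against a high-RFI mean of 15.2 CPM. miR-486 was mixed, at 47657.5, 88825 and 57362 CPM against a high-RFI mean of 82687 CPM. Replicate 3, with the second highest miR-21-5p, had 185 CPM of miR-1 and 64466 CPM of miR-133a. Low-RFI replicate 4 also held the highest erythrocyte miR-451 (11258 CPM) and leukocyte miR-142-5p (1028 CPM) of the 16. It was not the highest for miR-144, the other erythrocyte miRNA (94.6 CPM, against 186 CPM in high-RFI replicate 6). The summed level of the leukocyte miRNAs was highest in a high-RFI library (1418 CPM, against at most 1411 CPM in low-RFI libraries). Animal numbers of a series whose meaning the labels do not give belonged to 4 of 8 high-RFI and 1 of 8 low-RFI steers, and with that series as a covariate the log2 difference of miR-21-5p was 0.66 (edgeR adjusted p = 0.989). The part of muscle-fibre or blood content in the miR-21-5p difference was not tested.

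**Figure D3:**
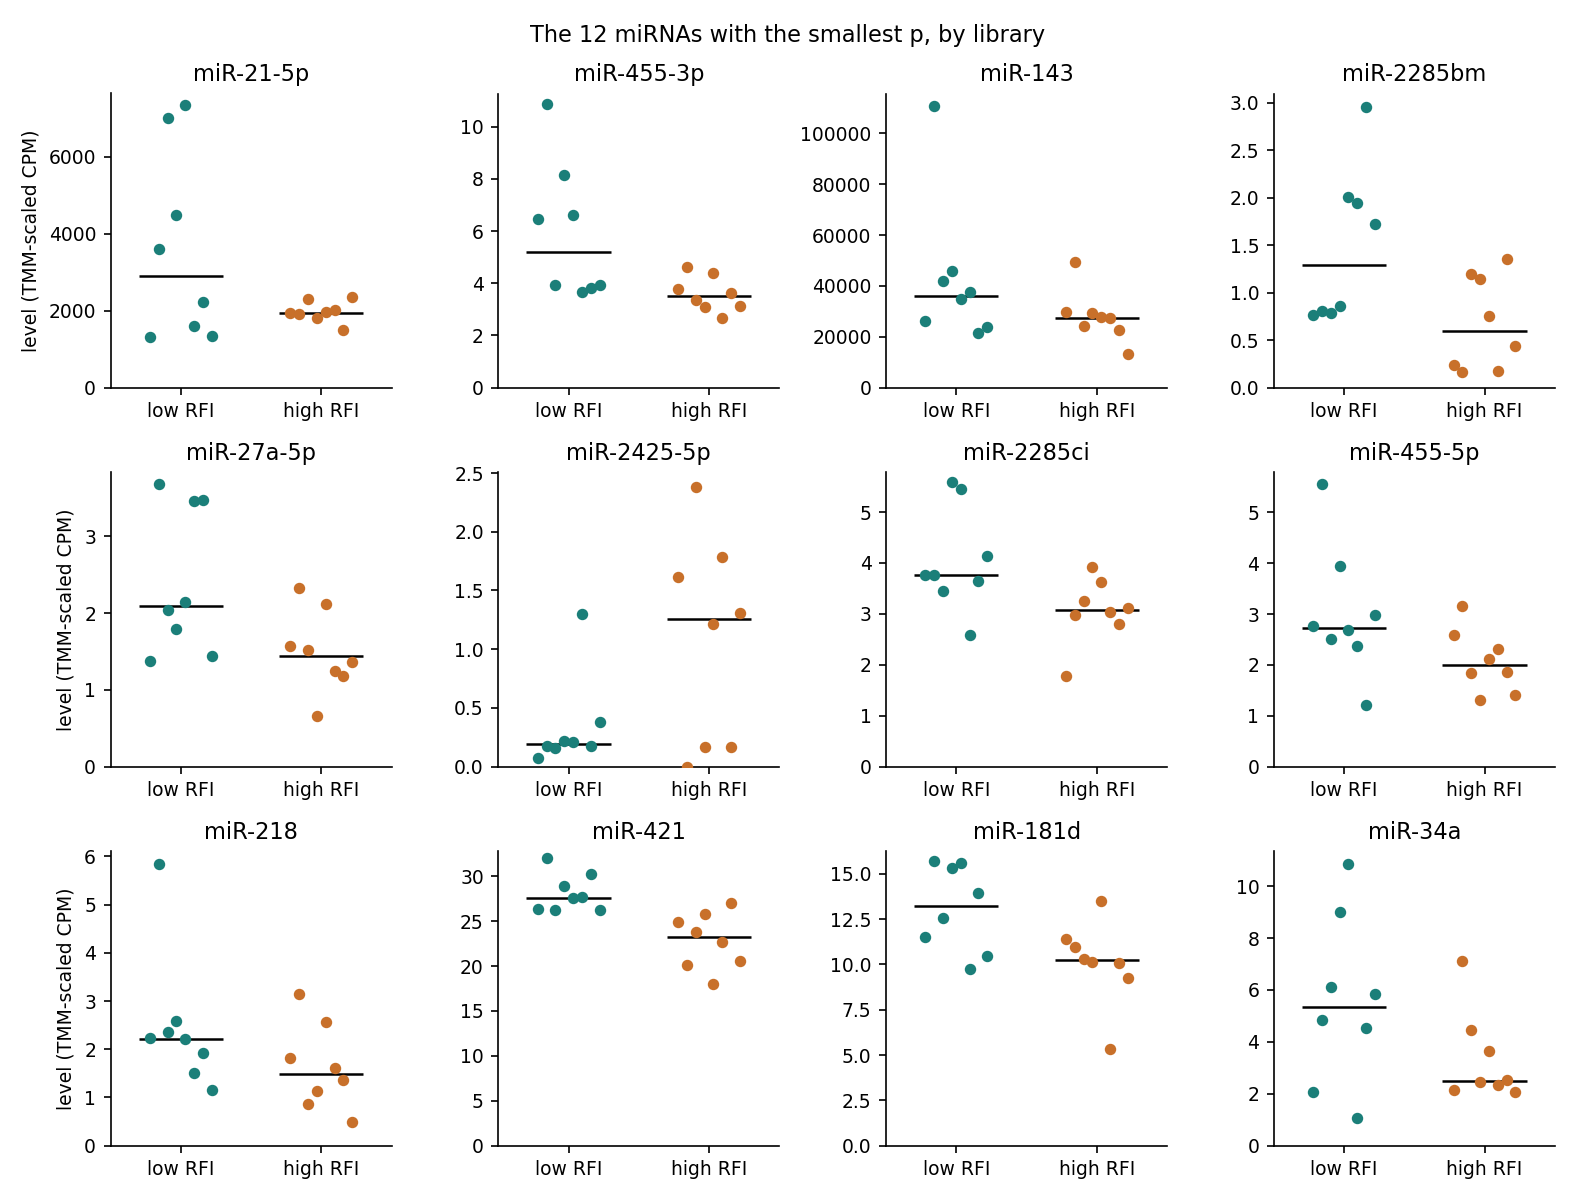
TMM-scaled CPM in each of the 16 libraries for the 12 miRNAs with the smallest p, each panel with its own axis from 0, a point per library and a line at the median of 8. The groups overlap in every panel: low-RFI points of miR-21-5p spread from 1329 to 7340 CPM around a tight high-RFI group, while all 8 low-RFI points of miR-455-3p, miR-2285bm and miR-421 lie above the high-RFI median.

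miR-455 is a cartilage-associated miRNA whose gene lies within the collagen gene COL27A1 in RefSeq's ARS-UCD2.0 annotation, used here for names and neighbours only. Its 3p arm ran from 3.67 to 10.9 CPM (median 5.19) in low-RFI and from 2.68 to 4.64 CPM (median 3.499) in high-RFI libraries, on 15 to 121 counts a library. Low-RFI replicates 1, 2, 4 and 5 exceeded every high-RFI library, and all 8 exceeded the high-RFI median. Its log2 difference was 0.75 ± 0.22 (SE, edgeR adjusted p = 0.229), and 0.47 without low-RFI replicate 2. The 5p arm ran from 1.22 to 5.57 CPM (median 2.73) and from 1.31 to 3.15 CPM (median 1.99), with a log2 difference of 0.57 ± 0.24 (SE, edgeR adjusted p = 0.722), or 0.28 without that replicate. Both arms of the hairpin thus lay on the same side, and their ratio differed by 0.16 on the log2 scale (exact permutation p = 0.399). All 8 low libraries lay above the high-RFI median for 8 of the 318 miRNAs (2.52%), and for none did all 8 lie below it. Those 8 were miR-455-3p, miR-2285bm, miR-421, miR-126-3p, miR-497, miR-145, miR-369-5p and miR-424-3p.

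miR-143 is transcribed beside miR-145, and the pair is known for the contractile state of vascular smooth muscle. miR-143 ran from 21486 to 110784 CPM (median 36138) in low-RFI and from 13349 to 49458.5 CPM (median 27536) in high-RFI libraries. Low-RFI replicate 2 held the value of 110784 CPM, above every other of the 16 libraries, and the other low-RFI libraries overlapped with the high-RFI range. The log2 difference was 0.61 ± 0.22 (SE, edgeR adjusted p = 0.642), and 0.14 without that replicate. miR-145 ran from 714 to 2023 CPM (median 1225) in low-RFI and from 114 to 1571 CPM (median 708) in high-RFI libraries, where replicate 1 was the lowest. Its log2 difference was 0.57 ± 0.35 (SE, edgeR adjusted p = 0.998), with the low library the higher in 44 of 64 pairs, and it was 0.33 without high-RFI replicate 1 and 0.36 without low-RFI replicate 2. The log2 ratio of miR-143 to miR-145 differed by -0.36 (exact permutation p = 0.533), so the neighbours did not separate beyond their spread.

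miR-421 showed the smallest difference of the 12 and the least overlap. It ran from 26.2 to 32.04 CPM (median 27.6) in low-RFI and from 18.0 to 27.0 CPM (median 23.2) in high-RFI libraries. High-RFI replicate 7, at 27.0 CPM, was the only high library above any low one, and the low library was the higher in 61 of 64 pairs. The log2 difference was 0.30 ± 0.13 (SE, edgeR adjusted p = 0.722), 0.16 under total-count scaling, and 0.17 to 0.25 with any 1 library left out, the lowest without low-RFI replicate 2. Leaving out any library also lowered the median of all miRNAs, from 0.05 to between -0.09 and 0.00. The gene of miR-421 lies within 10 kb of that of miR-374b in the same annotation. miR-374b ran from 21.3 to 27.3 CPM (median 24.9) and from 16.005 to 25.5 CPM (median 21.7), with a log2 difference of 0.23 ± 0.12 (SE, edgeR adjusted p = 0.998) and 50 of 64 pairs, or 0.10 without high-RFI replicate 1. miR-421 was also among the 5 least variable miRNAs averaging 10 CPM or more, with an SD of log2 CPM within the groups of 0.159.

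Another pair of neighbours, miR-181c and miR-181d, was among the 5 miRNAs at 10 CPM or more with the least overlap, along with miR-126-3p. The miR-181 family acts in lymphocytes and in muscle differentiation. miR-181d ran from 9.72 to 15.7 CPM (median 13.2) in low-RFI and from 5.35 to 13.5 CPM (median 10.2) in high-RFI libraries, with a log2 difference of 0.37 ± 0.17 (SE, edgeR adjusted p = 0.722). miR-181c ran from 87.1 to 131 CPM (median 105) and from 57.8 to 109 CPM (median 93.4), with a log2 difference of 0.28 ± 0.13 (SE, edgeR adjusted p = 0.853). High-RFI replicate 6 was the lowest of the 16 for both, and without it the values were 0.21 and 0.13. Without low-RFI replicate 2 they were 0.23 and 0.13. miR-126-3p, an endothelial miRNA, ran from 792 to 1157 CPM (median 993) and from 526 to 1126 CPM (median 787), with a log2 difference of 0.28 ± 0.15 (SE, edgeR adjusted p = 0.998), or 0.14 without high-RFI replicate 6. Its other arm, miR-126-5p, had medians of 6100 and 4880 CPM and a log2 difference of 0.19 ± 0.14 (SE, edgeR adjusted p = 0.998).

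The remaining miRNAs among the 12 with the smallest p were scarce, all under 5 CPM on average, and each had an edgeR adjusted p of 0.642 or 0.722. miR-2285bm, of a large ruminant family, ran from 0.77 to 2.96 CPM (median 1.29) in low-RFI and from 0.17 to 1.35 CPM (median 0.60) in high-RFI libraries, on 1 to 29 counts, for a log2 difference of 1.08 ± 0.40. miR-2285ci ran from 2.59 to 5.59 CPM (median 3.76) and from 1.78 to 3.92 CPM (median 3.07), for 0.45 ± 0.18, or 0.27 without either high-RFI replicate 1 or low-RFI replicate 4 and 0.29 without low-RFI replicate 5. Nearly all low libraries of both lay above the high-RFI median, 8 and 7 of 8, though the ranges overlapped.

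miR-27a-5p is the minor arm of a hairpin whose 3p arm restrains adipocyte differentiation. It ran from 1.38 to 3.68 CPM (median 2.09) in low-RFI and from 0.65 to 2.32 CPM (median 1.44) in high-RFI libraries, on 4 to 47 counts, for a log2 difference of 0.66 ± 0.26, or 0.42 without low-RFI replicate 2, its highest library. The abundant arm, miR-27a-3p, was 3528 ± 432 CPM in low-RFI and 3220 ± 521 CPM in high-RFI libraries (SD, n = 8 each), with a log2 difference of 0.13 ± 0.12 (SE, edgeR adjusted p = 0.998), or -0.0019 to 0.12 with any 1 library left out. The log2 ratio of 3p to 5p differed by -0.52 (exact permutation p = 0.0583, 0.166 after adjustment over the 4 ratios).

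miR-34a, a target of p53, ran from 1.08 to 10.8 CPM (median 5.35) in low-RFI and from 2.07 to 7.13 CPM (median 2.49) in high-RFI libraries, for a log2 difference of 0.79 ± 0.35 (SE). Low-RFI replicates 4 and 5 were the highest, and replicate 6 the lowest, of the 16, and without replicate 5 the difference was 0.50. miR-218, encoded in introns of SLIT2 and SLIT3, ran from 1.15 to 5.83 CPM (median 2.22) and from 0.49 to 3.15 CPM (median 1.48), for 0.68 ± 0.29. Without low-RFI replicate 2, its highest library, that value was 0.26, and without high-RFI replicate 8 it was 0.44. miR-2425-5p was the only one of the 12 that was lower in low-RFI libraries: it ran from 0.08 to 1.30 CPM (median 0.19) against 0.00 to 2.39 CPM (median 1.26), for -1.97 ± 0.81. Its counts were 1 to 6 in low-RFI and 0 to 48 in high-RFI libraries, and 3 high-RFI libraries were at 0.17 CPM or less, so the groups overlapped throughout the low end.

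The other genes of pathways and cell types were read from 17 lists, and 0 members of any list passed the edgeR test. For each list the median is set beside that of all 318 miRNAs, 0.05. Under the other scalings and tools that median of all 318 ran from -0.07 (total-count scaling) to 0.07 (limma-voom). In bulk muscle, fewer cells of a type and less RNA per cell cannot be told apart. Of the 8 myomiRs, 4 were on the higher and 4 on the lower side, with a median log2 difference of -0.05. miR-133a had 0.09 ± 0.21, miR-1 -0.15 ± 0.18, miR-133b 0.03 ± 0.24, miR-206 0.14 ± 0.31 (-0.14 to 0.31 with any 1 library left out), and miR-499 -0.29 ± 0.26 (SE), or -0.05 without high-RFI replicate 5. The myosin-encoded miR-208b ran from 433 to 1283 CPM (median 732) in low-RFI and from 491 to 1081 CPM (median 712) in high-RFI libraries, a log2 difference of 0.02 ± 0.21. Under the 5 other scalings and tools the list's median was -0.09 to -0.24, with 1 or 2 of 8 on the higher side. Relative to the median of all 318 in the same setting it was -0.09 to -0.16.

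Of 8 smooth muscle and fibroblast miRNAs, 6 were on the higher side, with a median of 0.11 (0.03 to 0.17 under 5 other scalings and tools). With DESeq2, and with its size factors in edgeR, 4 of 8 were on the higher side. In this list 2, miR-21-5p and miR-143, were at an unadjusted edgeR p under 0.05, against 17 of all 318 (5.35%). Besides miR-145 and miR-21-3p, described above, miR-199a-3p had a log2 difference of -0.18 ± 0.24 (0.13 without high-RFI replicate 2), miR-199a-5p 0.08 ± 0.27, miR-199b 0.13 ± 0.18 and miR-214 0.00 ± 0.29 (SE). The list's summed level ran from 25818 to 117165 CPM in low-RFI and from 16614 to 54409 CPM in high-RFI libraries. The miR-29 family, which represses collagen messenger RNAs, had 4 of 5 members on the lower side, with a median of -0.08 (-0.03 to -0.19 under the other scalings and tools) and no member beyond 0.09 in size. All 3 cartilage and bone names were on the higher side (median 0.57, 0.44 to 0.56 under the other scalings and tools), made up of the 2 arms of miR-455 and of miR-140 at 0.14 ± 0.12.

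Blood-borne miRNAs varied widely within both groups. Erythrocyte miR-451 ran from 767 to 11258 CPM (median 2123) in low-RFI and from 772 to 7870 CPM (median 3164) in high-RFI libraries, a log2 difference of -0.23 ± 0.73, or -1.01 without low-RFI replicate 4 and -0.08 without high-RFI replicate 6. miR-144, from the same transcript, had -0.68 ± 0.74 (SE), or -1.18 and -0.22. Of 8 leukocyte names 7 were on the lower side, with a median of -0.05 (-0.09 to -0.22 under the other scalings and tools), and the summed level ran from 420 to 1411 CPM in low-RFI and from 430 to 1418 CPM in high-RFI libraries. miR-142-5p had -0.28 ± 0.44, miR-146a -0.01 ± 0.31, and the exception, miR-155, 0.28 ± 0.24 (-0.07 without low-RFI replicate 2). In the epithelial list only miR-141 was tested, and miR-200b had 1 count over the 16 libraries.

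Metabolic lists lay near the whole profile. Of 16 lipid metabolism miRNAs 11 were on the higher side, with a median of 0.11, of 15 insulin and glucose miRNAs 11, with 0.04, and of 11 hypoxia and mitochondria miRNAs 7, with 0.07, but each of these medians turned negative under total-count scaling. The median of all 318 was -0.07 in that setting, and relative to it these lists lay at 0.05, -0.02 and 0.05. miR-378, encoded in PPARGC1B and a regulator of mitochondrial metabolism, had a log2 difference of -0.02 ± 0.17. miR-103, which acts on insulin sensitivity, had 0.04 ± 0.27, let-7f -0.03 ± 0.10 and hypoxia-induced miR-210 -0.05 ± 0.19 (SE). Of 21 satellite cell and myoblast miRNAs 16 were on the higher side (median 0.11), and of 24 in the imprinted DLK1-DIO3 cluster 15 (median 0.08), and both medians turned negative under total-count scaling. Relative to the median of all 318 in that setting, the satellite cell list lay at 0.05 and the DLK1-DIO3 cluster at 0.01. miR-127 of that cluster had 0.15 ± 0.17. Of 13 miRNAs of miR-17-92 and its paralogs 9 were on the lower side (median -0.04, and -0.02 to -0.16 under the other scalings and tools), and all 5 of the miR-424/450 cluster were on the higher side (median 0.13, -0.06 under total-count scaling). Relative to the median of all 318 under total-count scaling, the miR-424/450 cluster lay at 0.01.

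**Figure D4:**
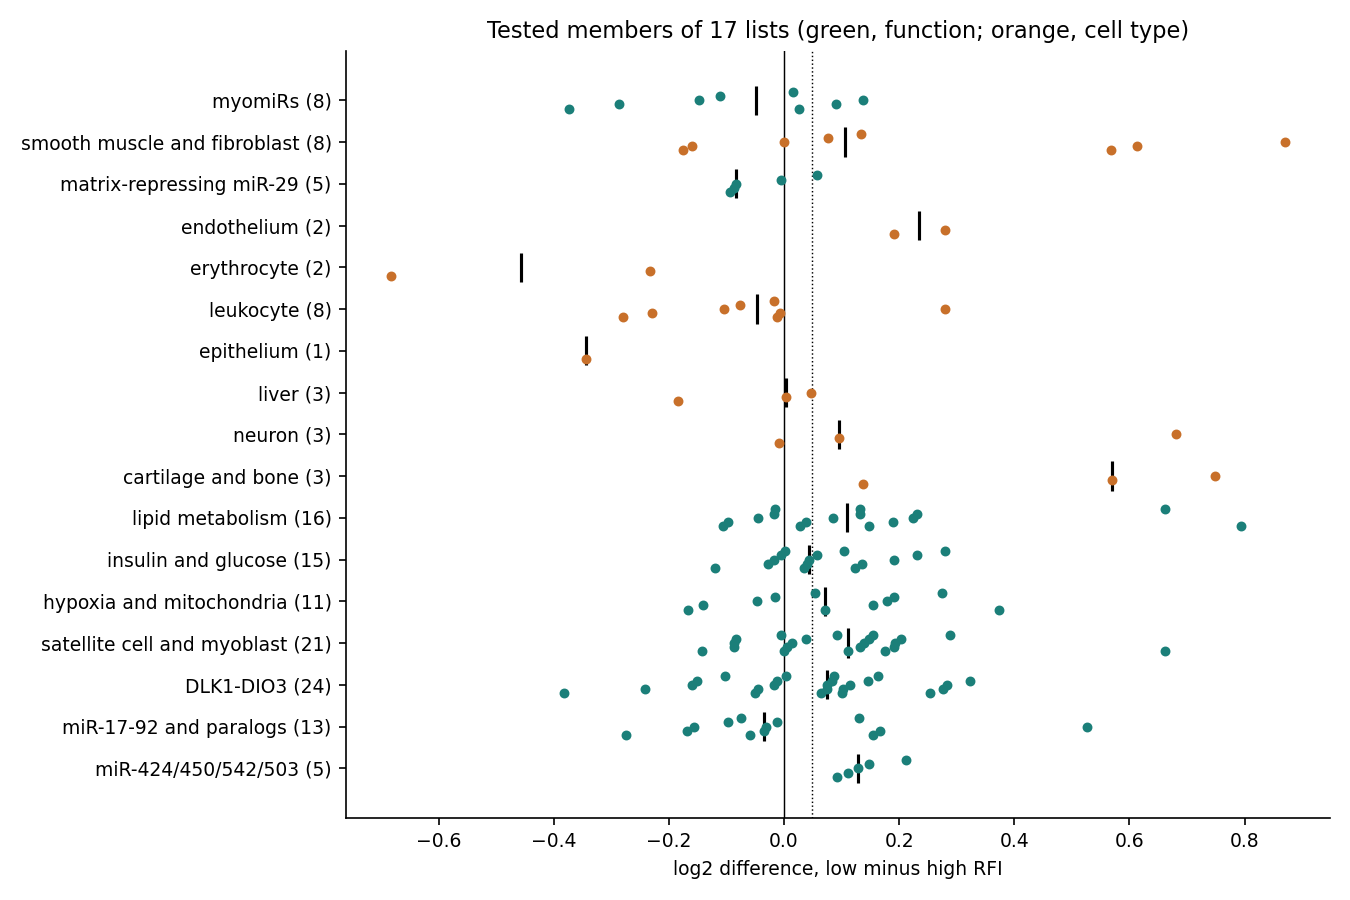
Log2 difference, low minus high RFI, of each tested member of 17 lists, with the number tested in brackets, a black tick at the list's median and a dotted line at the median of all 318 miRNAs (0.05). Most points lie within 0.4 of 0, and miR-21-5p, miR-143, miR-145, both arms of miR-455, miR-218, miR-34a, miR-27a-5p and miR-363 lie farther to the right and miR-144 (-0.68) farther to the left.

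Whether the RFI difference on grass was particular to Holstein-Friesian steers was tested as an interaction in the same fit. Between Holstein-Friesian and Charolais steers on grass, 0 of 318 miRNAs had a different RFI effect by edgeR (0%), and 21 (6.6%) had an unadjusted p under 0.05. Between grass and concentrate in Holstein-Friesian steers the counts were 0 (0%) and 19 (5.97%). DESeq2 and limma-voom called 0 in both. The steer of high-RFI replicate 1 on grass also gave a concentrate library, and these tests treated its libraries as independent. Without that grass library the diet interaction called 0. The animal as a block was not fitted for the interactions. The RFI comparison in Charolais on grass called 0 with 17 (5.35%) at an unadjusted p under 0.05, and that in Holstein-Friesian on concentrate 0 with 35 (11%).

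Values elsewhere are given here for some of the 12 miRNAs. miR-143 had a log2 difference of -0.48 ± 0.22 in Charolais on grass, so the breeds differed by 1.10 ± 0.31 (SE, edgeR unadjusted p = 0.0009, adjusted p = 0.269). Without low-RFI replicate 2 the breeds differed by 0.62 (adjusted p = 0.854), and without high-RFI replicate 2 by 1.24 (adjusted p = 0.0288). For miR-455-3p the Charolais value was -0.26 ± 0.23 and the breeds differed by 1.01 ± 0.32 (adjusted p = 0.269), and for miR-2285bm they were -0.69 ± 0.42 and 1.77 ± 0.58 (adjusted p = 0.269). In Holstein-Friesian steers on concentrate, mean levels of miR-143 were 29789 CPM in low-RFI and 24460 CPM in high-RFI libraries, the side seen on grass. miR-455-3p (5.23 and 4.51 CPM) and miR-2285bm (1.29 and 0.83 CPM) also lay on the side seen on grass. By mean level there, miR-27a-5p, miR-421, miR-181d and miR-34a lay on the other side from grass. On concentrate, Holstein-Friesian steers had 0.01 ± 0.23 for miR-21-5p, 0.86 ± 0.33 away from the grass value (SE, edgeR unadjusted p = 0.010, adjusted p = 0.699), and 0.51 away without low-RFI replicate 5 or 0.52 without replicate 3. miR-27a-5p had -0.70 ± 0.28 on concentrate, 1.36 ± 0.39 away (SE, edgeR unadjusted p = 0.0008, adjusted p = 0.251). With all libraries in, none of these differences between settings held after adjustment.

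**Figure D5:**
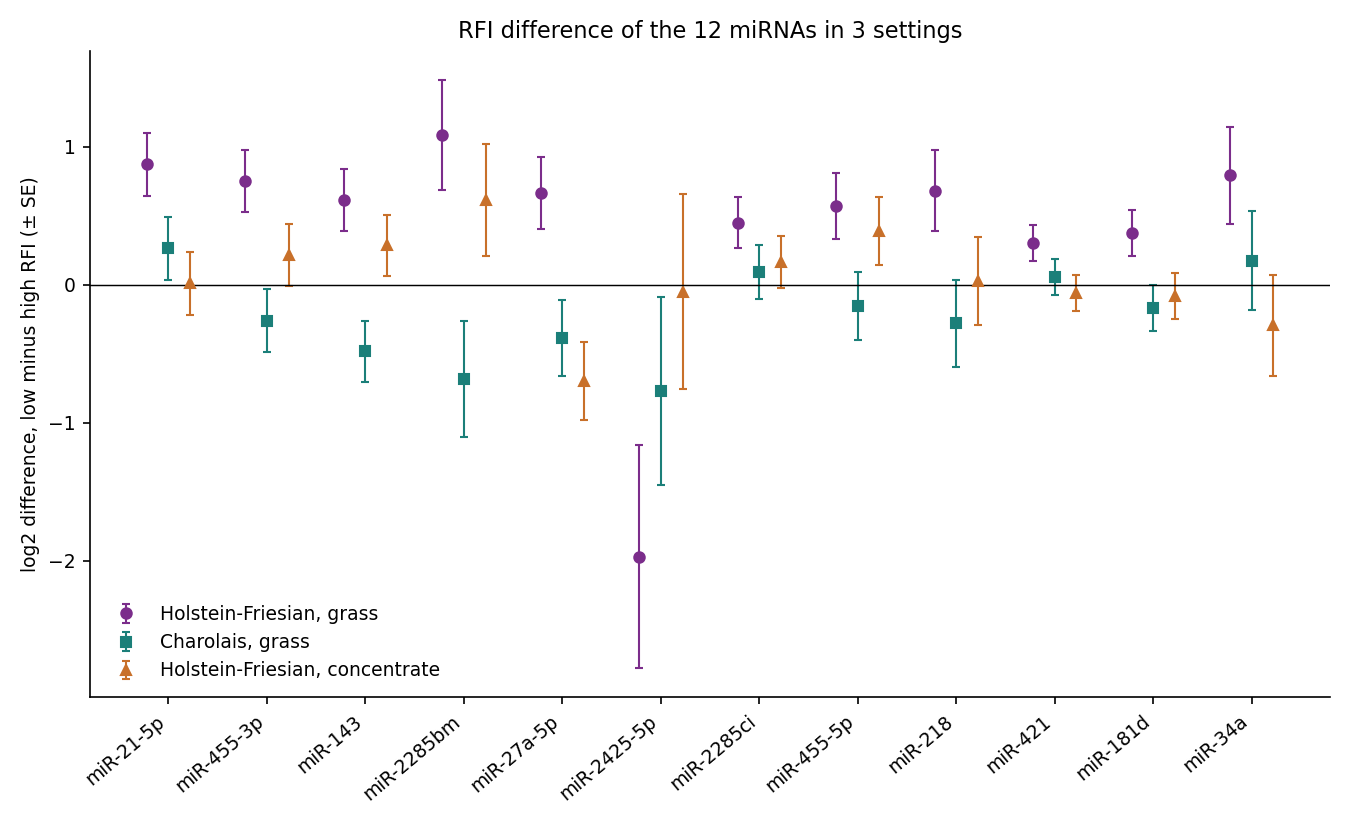
Log2 difference, low minus high RFI (± SE), of the 12 miRNAs in Holstein-Friesian steers on grass, Charolais steers on grass and Holstein-Friesian steers on concentrate. miR-21-5p is near 0 on concentrate (0.01), and miR-143 is at -0.48 in Charolais on grass.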

How the data were processed

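Small RNA from skeletal muscle was sequenced. The authors deposited 1 table of raw estimated counts that covers 1030 miRNA names in 64 libraries. The submitters' processing notes name FastQC 0.11.8, cutadapt 2.6, R 3.4, edgeR 3.5 and ARS-UCD1.2. Per the labels, libraries were made with a TruSeq stranded RNA kit. The sources used here name no aligner, counter or miRNA annotation, and no selection step for small RNA. Of the names, 60 held fractional values (beyond 0.001 of a whole number), rounded before testing, and miR-2285b was left out for 3 empty cells. In the 16 libraries 739 names had a count. The deposited columns not tied to a sample numbered 0.

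edgeR 4.0.16 in R 4.3.3 was fitted to 8 group means over all 64 libraries (quasi-likelihood, robust, TMM, filterByExpr), leaving 56 residual degrees of freedom, so the spread of all groups was shared. The filter kept 318 miRNAs, and the rest held 0.00692% of the counts of the 16 libraries. CPM values are counts scaled by TMM factors. Calls used a Benjamini-Hochberg adjusted p under 0.05, and SE is the log2 difference divided by the root of F. Ratios of arms used a pseudocount of 0.5 and were examined after seeing the data. DESeq2 1.42.0 and limma 3.58.1 (voom), other scalings, filters and sets of libraries, leaving out each library, and the animal as a block were alternatives. Scripts were tested on simulated data.

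Replicate numbers follow the order of the labels and pair no samples. The 64 libraries came from 59 steers by the animal numbers in the labels, and 5 steers gave a library on both diets, with an estimated correlation of 0.389. Of the 16 steers only that of high-RFI replicate 1 was 1 of those 5. Among the 16 libraries, no low-RFI and high-RFI library shared an animal. Elsewhere in the series, a Charolais steer labelled High-RFI on grass was labelled Low-RFI on concentrate. The named miRNAs are the 12 with the smallest p, the 6 most abundant, members of the lists (3 most abundant, or all for myomiRs and selected cell types), other arms and neighbours, the 5 with least overlap, and the 5 most and 5 least variable at 10 CPM or more. miR-497, miR-369-5p, miR-424-3p, miR-122, miR-124a, miR-200b, miR-129-3p and miR-10a were named after their values were seen. Members, lists and rules were chosen with earlier results of these data known. Sequences were not used here.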

Additional observations from a re-analysis of the deposited data

Results flagged for a closer look

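In groups of 8, Dixon's test picked out 10 values in the 50 groups of 8 examined. Chance picks about 1 group in 20 where values are normally distributed and groups independent. Here the values were not log-transformed, miR-143 entered both as a level and as a share, and shares of the same library depend on each other. The number picked out is therefore not a measure of excess over chance. For miR-143 they were low-RFI replicate 2 at 110784 CPM and high-RFI replicate 2 at 49458.5 CPM. As shares of counts they were low-RFI replicate 2 at 13.3% and high-RFI replicate 1 at 7.28%. High-RFI replicate 1 also stood apart with a TMM factor of 2.43, a miR-10b share of 19.3% and a miR-133a share of 18.6%. Among scarce miRNAs, miR-218 stood apart in low-RFI replicate 2 (5.83 CPM), miR-34a in high-RFI replicate 2 (7.13 CPM) and miR-2425-5p in low-RFI replicate 6 (1.30 CPM).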

How the results depend on the processing

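In all 31 alternative settings 0 miRNAs were called, and at an unadjusted p under 0.05 there were 17 as reported, 34 of 803 without a filter, 2 of 178 at 10 CPM or more, 7 of 287 with only the 16 libraries, 11 with total-count scaling, 9 with the animals' numbering series as a covariate, and 9 to 19 when 1 library was left out, with 9 without low-RFI replicate 2 or 4, 10 without low-RFI replicate 5 or high-RFI replicate 4, and 11 without low-RFI replicate 8 or high-RFI replicate 6. Without low-RFI replicate 2 and high-RFI replicate 1 together, a setting added after seeing the data, there were 6. That numbering series, whose meaning is not given, took in 4 of 8 high-RFI and 1 of 8 low-RFI steers, and with it as a covariate miR-21-5p had 0.66, miR-455-3p 0.69 and miR-143 0.45. With the animal as a replicate block 17 were at an unadjusted p under 0.05 and the smallest adjusted p was 0.219; miR-21-5p then had 0.58 (adjusted p = 0.625) and miR-455-3p 0.70. Over the settings the adjusted p of miR-21-5p ran from 0.0914 to 0.996.

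Of 516 values for the 12 miRNAs with the smallest p and the 6 most abundant (miR-143 is in both), 36 changed sign, all for 3 abundant miRNAs with differences near 0. miR-10b had 0.053 with total-count scaling, 0.19 with voom, 0.27 with the replicate block, and -0.247 to 0.0749 with a library left out. miR-133a had -0.20 with total-count scaling, -0.019 without the concentrate libraries of repeated animals, and -0.14 to 0.11 with a library left out. miR-22-3p had -0.0308 with DESeq2 and with its size factors in edgeR, -0.0178 with upper-quartile scaling, -0.21 with total counts, -0.0384 without a filter, -0.0327 at 10 CPM or more, -0.0298 with the Holstein-Friesian libraries, -0.0312 with the covariate, -0.0587 without the concentrate libraries of repeated animals, -0.0378 without miR-10b, and -0.15 to 0.0311 with a library left out. The cause was not tested. With a library left out, low minus high ran from -814195 to 249971 for total count, -10.1 to 9.66 for miRNAs with a count, -0.18 to 0.0625 for the TMM factor, -2.83 to 4.19 percentage points for miR-10b, -1.83 to 0.41 for miR-133a, 0.49 to 2.22 for miR-143, -1.22 to -0.38 for miR-26a and -1.91 to -0.83 for miR-486. The median SE was 0.267 under 10 CPM and 0.182, 0.178 and 0.177 in the 3 classes above; the part of depth in this was not tested. The interaction of RFI with breed on grass called 0 with all libraries and 0 to 1 with a library left out, a setting added after seeing the data (miR-143, without high-RFI replicate 2).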

Other observations

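The miR-19 pair of the miR-17-92 cluster, which acts in cell growth, was the most variable of the miRNAs averaging 10 CPM or more. miR-19b ran from 179 to 542.5 CPM in low-RFI and from 14.6 to 731 CPM in high-RFI libraries, and miR-19a from 27.2 to 75.3 CPM and from 2.01 to 103 CPM. The SD of log2 CPM was 0.58 and 1.84 for miR-19b and 0.54 and 1.84 for miR-19a, the reverse of miR-21-5p. High-RFI replicate 1 was the lowest library for both, for miR-10a (2062 CPM, against 7165 CPM or more in the other high-RFI libraries), for miR-145 (114 CPM) and for miR-10b (79471 CPM). Whether these levels and the TMM factor of that library move for a shared reason was not tested.

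miR-129-3p had the next largest excess of spread in low-RFI libraries after miR-21-5p, running from 0.00 to 17.2 CPM against 0.07 to 4.15 CPM. At the stable end were miR-2284x, let-7a-5p, miR-421, miR-27b and miR-2285av, with SDs of log2 CPM within the groups of 0.151 to 0.163. Of these, let-7a-5p had a log2 difference of 0.06 ± 0.10 and miR-27b 0.15 ± 0.12 (SE).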
